A study of Rattus norvegicus with 6 samples.

Results

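The granins are acidic secretory proteins of the dense-core granules of endocrine cells and neurons, and their transcripts were measured in INS-1 rat insulinoma lines that carry or lack an active Prader-Willi syndrome (PWS) domain. Membership was set by name. Of the 7 names taken as the family (Chga, Chgb, Scg2, Scg3, Scg5, Vgf and Pcsk1n), 6 had a row among the 32900 rows of the gene table, all 6 passed the filter on low values, and Pcsk1n, which encodes proSAAS, matched no row by name and was not analysed here. INS-1 is a β-cell tumour line, and its INS-1(832/13)::mCherry derivative, used for every sample, carries a human INS-neoR transgene and a mouse Ins2-C-mCherry transgene. The 3 control lines (5-9, 2 and 16) have the PWS domain deleted on the silent maternal allele, and the 3 PWS lines (3, 19-1 and 19-4) have it deleted on both alleles. All were grown in 7.5 mM glucose without treatment. Lines 2, 16, 3 and 19 were isolated from control line 5-9 after a second round of transfection, and because 19-1 and 19-4 were both subcloned from line 19, only 2 independent clones lie behind the 3 PWS lines. Each line gave 1 library of rRNA-depleted total RNA, so that the p-values measure the spread between clonal lines and not between repeat cultures of a line.

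Chromogranin A and B and secretogranin II are sorted to the regulated secretory pathway, where they aggregate at the acid pH and high calcium of the trans-Golgi network together with prohormones. They are then cut at pairs of basic residues by the prohormone convertases, and some of the resulting peptides act on nearby cells, such as pancreastatin and WE14 from chromogranin A. In the β-cell they share the granule with insulin and amylin and leave the cell with them.

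Promoter windows of the rat RefSeq annotation (assembly GRCr8, 250 bases before to 50 after the gene start) were read for 6 of the 7 genes by symbol, all except Chga. Those of Chgb, Scg2 and Vgf are shown because Chgb was the granin gene whose groups stood apart, whereas Scg2 and Vgf, whose groups overlapped, carry the cAMP response element (CRE), the binding motif of the CREB family. Capitals mark the CRE in Scg2 and Vgf, and in Chgb the GC box (GGGCGG) on the reverse strand. The windows lie at chr3:140496462-140496761 on the plus strand for Chgb, at chr9:88256817-88257116 on the minus strand for Scg2 and at chr12:25276971-25277270 on the minus strand for Vgf, and are written 5′ to 3′ along the gene.
Chgb: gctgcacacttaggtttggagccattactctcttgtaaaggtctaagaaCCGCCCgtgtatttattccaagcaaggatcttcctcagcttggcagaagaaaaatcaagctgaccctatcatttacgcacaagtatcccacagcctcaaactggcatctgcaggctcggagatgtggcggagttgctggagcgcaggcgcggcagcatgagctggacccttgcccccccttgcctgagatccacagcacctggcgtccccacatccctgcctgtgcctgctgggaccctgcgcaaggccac
Scg2: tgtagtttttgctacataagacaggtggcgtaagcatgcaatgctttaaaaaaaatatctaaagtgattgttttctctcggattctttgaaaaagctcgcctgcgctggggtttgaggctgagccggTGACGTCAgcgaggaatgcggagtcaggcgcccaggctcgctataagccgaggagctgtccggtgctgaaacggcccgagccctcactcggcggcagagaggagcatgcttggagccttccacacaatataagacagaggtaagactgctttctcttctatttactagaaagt
Vgf: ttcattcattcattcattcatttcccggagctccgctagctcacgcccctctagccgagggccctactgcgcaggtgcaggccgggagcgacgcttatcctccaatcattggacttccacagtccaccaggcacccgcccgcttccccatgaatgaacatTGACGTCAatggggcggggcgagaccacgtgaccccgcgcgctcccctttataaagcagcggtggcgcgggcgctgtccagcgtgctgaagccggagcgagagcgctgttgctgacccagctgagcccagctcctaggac

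The CRE (TGACGTCA, searched on both strands) was found at position -123 from the gene start in Scg2 and at -90 in Vgf, and in 1.83% of all 33469 promoter windows of the annotation. Its half-site TGACG, which each CRE holds on either strand, was also present in the windows of Scg3 at -69 and of Scg5 at -7 and 14, and in 21.2% of all windows. Neither form was in the 300 bases of Chgb or Pcsk1n. The GC box, which SP1 binds, was present in Chgb at -201, in Scg5 at -44, in Pcsk1n at -12 and in Vgf at -116 and -79, against 33.1% of all windows. These matches describe letters in one window of a later assembly than that used for the alignment, and factor binding was not measured.

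The libraries held between 26016478 and 36084261 counted reads. The values below are normalized counts, which are HTSeq counts divided by DESeq2's size factors. A read that aligned to several places or overlapped several annotated genes was counted at each (nonunique all). These normalized counts are not divided by transcript length, so the levels of different genes are not ranked against each other. The deleted domain was checked by Mkrn3 and Snurf, imprinted genes within it. Mkrn3 lay between 77.9 and 89.0 normalized counts in the control lines. In the 3 PWS lines it was at 0, where up to 3 reads could be present and missed. Snurf lay between 3160 and 3992 in the control lines. It was at 2.04, 0 and 3.64 in lines 3, 19-1 and 19-4, and 1.62% of its reads were unique. Of 10 β-cell markers 9 had a row, and their summed level ranged from 482043 to 558662 in the control lines and from 251567 to 453396 in the PWS lines, most of it Ins1 and Iapp. Summed markers of α-, δ- and PP-cells (8 genes, Sst and Irx2 at 0 in every line) ranged from 189 to 220 and from 184 to 307, the upper end being line 19-4, where Gcg reached 100 against 0 to 19.0 in the other lines. Of 9 non-endocrine markers 8 had at most 3 reads in every line, and their sum was 32.3 to 35.8 in the control and 31.6 to 33.6 in the PWS lines, nearly all from Cd68.

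Chgb, which encodes chromogranin B, was the only granin transcript whose PWS and control lines did not overlap, and it was higher in PWS. That is 1 of 6 genes, close to the 17.4% of all genes tested whose groups did not overlap (8.43% with the PWS lines all higher). Its level was 23244, 9355 and 12275 normalized counts in the control lines 5-9, 2 and 16, and 41825, 41728 and 41746 in PWS lines 3, 19-1 and 19-4. Every PWS line was therefore above every control line, and the highest control was line 5-9, from which the others were isolated. The means were 14958 ± 7323 (SD, n = 3) and 41766 ± 51.6 (SD, n = 3), a ratio of 2.79, and the PWS mean was 1.80 times the value of line 5-9, 3.40 times that of line 16 and 4.46 times that of line 2. On the log2(normalized count + 1) scale the difference was 1.59 ± 0.28 (SE), with a 95% confidence interval of 0.95 to 2.23, or 1.93-fold to 4.69-fold. Its limma p-value was 0.000399 before adjustment and 0.124 after Benjamini-Hochberg adjustment over the 15579 genes tested, which does not pass the threshold of 0.05. With DESeq2 the adjusted p-value was 0.0271 at a log2 fold change of 1.48, which passes, and with edgeR's quasi-likelihood test it was 0.201. For the single gene, the exact permutation test (two-sided) gave p = 0.1, the smallest that 3 lines against 3 allow. Any gene whose groups do not overlap gets this value, so the test adds nothing to the lack of overlap. In bulk RNA a change in the number of cells that express a gene and a change in RNA per cell cannot be told apart.

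The scaled Chgb levels of the 3 PWS lines lay close together, while those of the control lines were spread widely. The coefficient of variation was 0.123% over the PWS lines and 49.0% over the control lines. Counting error alone gives 95% Poisson intervals of 41421 to 42232 in line 3, 41292 to 42169 in line 19-1 and 41365 to 42129 in line 19-4. The PWS coefficient of variation is smaller than these intervals can resolve, so its value is not a measure of how alike the lines are. Before scaling, the reads were 40969, 34897 and 45916, and with TMM scaling the levels were 42020, 41616 and 41626, so the closeness is that of scaled values. Lines 3, 19-1 and 19-4 stayed close with uniquely assigned reads (nonunique none), at 41765, 41403 and 41715, and with RSEM, at 38556, 38557 and 38679. Reads of Chgb were unique for 99.7%. Among the 987 genes that averaged 5000 normalized counts or more, a limit chosen after the values were seen, Chgb had the fourth largest coefficient of variation over the control lines, and it was first by the size of the log2 fold change. The order by control spread depended on the table, with rank 4 from the largest with TMM scaling, 2 of 779 genes with nonunique none counting and 15 of 764 with RSEM. Over the PWS lines the coefficient of variation was 0.552% with TMM scaling, 0.472% with nonunique none counting and 0.183% with RSEM. With the deposited scaling, the medians over the 987 genes were 6.56% in the PWS and 5.89% in the control lines.

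**Figure D1:**
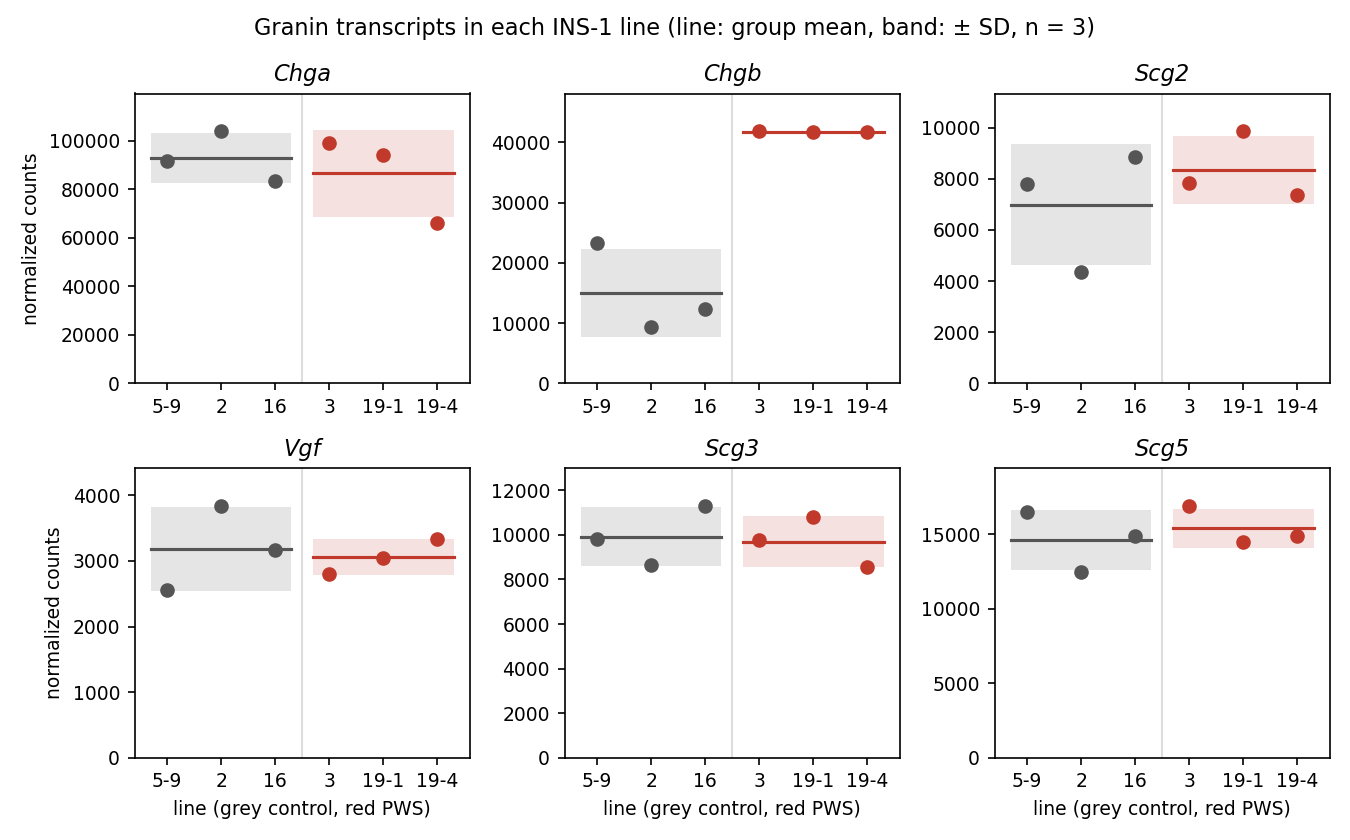
Normalized counts (axis from 0) of the 6 granin genes in control lines 5-9, 2 and 16 (grey) and PWS lines 3, 19-1 and 19-4 (red), 1 point per line, with the group mean as a line and ± SD as a band (n = 3). For Chgb the 3 red points lie together near 41766 above all grey points, and for the other 5 genes the groups overlap.

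Chga, which encodes chromogranin A, did not differ between the groups beyond the spread of the lines. It stood at 91929, 103985 and 83350 normalized counts in the control lines 5-9, 2 and 16, and at 99357, 94361 and 66209 in PWS lines 3, 19-1 and 19-4. The groups overlapped, and line 19-4 had the lowest value of the 6. The means were 93088 ± 10366 and 86642 ± 17871 (SD, n = 3 each), with a log2 difference of -0.12 ± 0.17 (SE), a 95% confidence interval of -0.51 to 0.27 and a limma adjusted p-value of 0.835. Without line 19-4 the log2 difference was 0.06. Line 19-4 was also the lowest of the 6 lines for Ins1 (133488 normalized counts, against 175597 to 282807 in the others) and Iapp (97752, against 150687 to 246567), and the highest for Gcg, and the part of these in the Chga value was not tested.

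Secretogranin II (Scg2), the precursor of secretoneurin, and VGF, the precursor of TLQP-21, are long granins that are cut into many peptides, and neither transcript passed the test. Scg2 was at 7786, 4334 and 8842 normalized counts in the control lines 5-9, 2 and 16, and at 7832, 9857 and 7365 in lines 3, 19-1 and 19-4. Line 2 was the low one, and the other 5 lines overlapped. Scg2 had means of 6988 ± 2358 and 8351 ± 1324 (SD, n = 3 each), a log2 difference of 0.31 ± 0.24 (SE) with a 95% confidence interval of -0.25 to 0.87, and a limma adjusted p-value of 0.672. Without control line 2 its log2 difference was -0.0023.

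Vgf stood at 2557, 3838 and 3165 normalized counts in the control lines 5-9, 2 and 16, and at 2793, 3041 and 3334 in PWS lines 3, 19-1 and 19-4, with all 3 PWS values inside the control range. The means were 3187 ± 641 and 3056 ± 271 (SD, n = 3 each), with a log2 difference of -0.04 ± 0.14 (SE), a 95% confidence interval of -0.37 to 0.28 and a limma adjusted p-value of 0.935. This gene is the uncertain one of the family, because only 29.4% of its reads were unique. Between 1780 and 3015 of its reads per line were shared with other genes, and the annotated gene whose own number of shared reads came closest (ENSRNOG00000053620) had 1669 to 2795 shared and 0 to 3 unique reads per line. Whether these are the same reads was not tested. From unique reads alone Vgf averaged 918 ± 178 and 921 ± 85.3 (SD, n = 3 each), with a log2 difference of 0.02.

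Scg3 and Scg5 encode granule proteins with partner roles. Secretogranin III binds chromogranin A and cholesterol-rich granule membrane, and Scg5 encodes 7B2, the chaperone of the convertase PCSK2. Scg3 was at 9805, 8659 and 11299 normalized counts in the control lines 5-9, 2 and 16, and at 9748, 10798 and 8540 in PWS lines 3, 19-1 and 19-4. Both groups covered nearly the same range, with a log2 difference of -0.03 ± 0.12 (SE), a 95% confidence interval of -0.30 to 0.24 and a limma adjusted p-value of 0.948. Scg5 was at 16512, 12497 and 14892 in the control lines 5-9, 2 and 16, and at 16920, 14489 and 14868 in the PWS lines 3, 19-1 and 19-4. Again 1 control line, 2, was below the rest. The log2 difference of Scg5 was 0.08 ± 0.11 (SE), with a 95% confidence interval of -0.18 to 0.34 and a limma adjusted p-value of 0.831.

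For these 5 genes, the intervals limit the size of a difference that the libraries could have missed. They exclude a PWS level above 1.18 times the control level for Scg3, 1.20 for Chga, 1.21 for Vgf and 1.27 for Scg5, and below 0.704 times for Chga, 0.776 for Vgf, 0.811 for Scg3 and 0.885 for Scg5. Scg2 was the least precise, with an interval from 0.841 to 1.83 times the control level. Chgb's interval of 1.93 to 4.69 times overlapped none of those 5 intervals, although the difference between genes was not itself tested. That holds for the main fit only. With 19-1 and 19-4 averaged, the SE rose from 0.28 to 0.34 for Chgb and from 0.24 to 0.28 for Scg2. The SE also rose from 0.14 to 0.16 for Vgf and from 0.11 to 0.13 for Scg5. It fell from 0.17 to 0.14 for Chga and from 0.118 to 0.113 for Scg3.

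Counted over the family, limma called 0 of the 6 genes at an adjusted p under 0.05, against 0.257% of all genes tested (0.00642% higher and 0.25% lower in PWS). DESeq2 called 1 of 6, Chgb, against 1.46% of all genes (0.68% higher and 0.783% lower), and edgeR called 0 of 6 against 0.205%. At an unadjusted limma p under 0.05 the count was 1 of 6, higher in PWS, against 11.3% of all genes (6.0% higher and 5.35% lower). Groups that did not overlap were 1 of 6, against 17.4% of all genes in either direction and 8.43% with the PWS lines all higher. With 3 genes above and 3 below the control mean on the log2 scale and a median log2 difference of 0.03, beside -0.0028 over all genes tested, the family had no common direction.

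**Figure D2:**
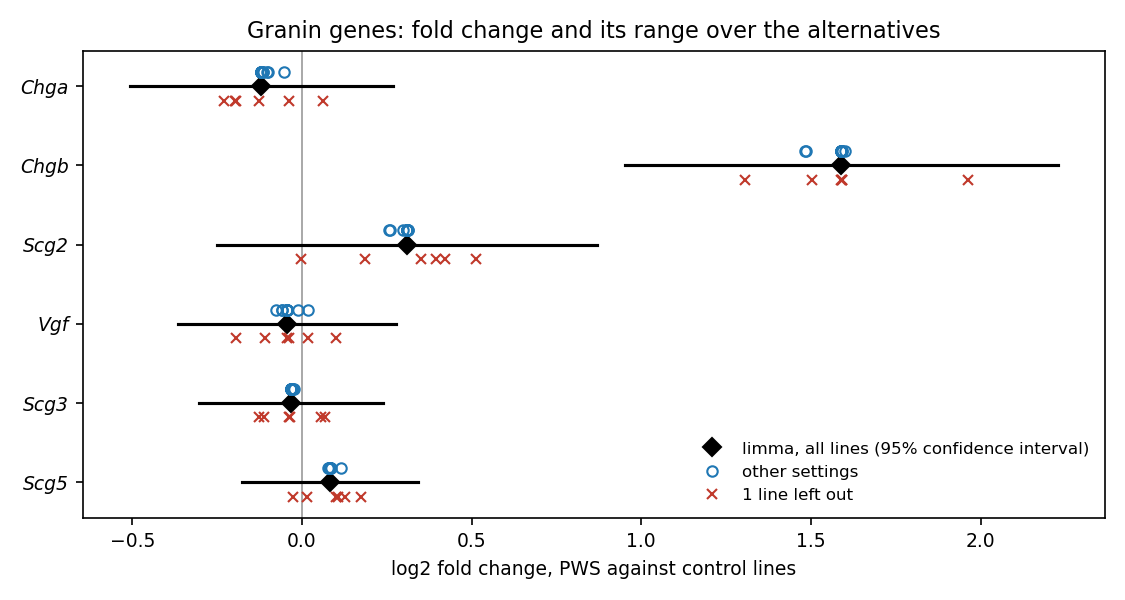
log2 fold change of PWS against control lines for the 6 granin genes: limma estimate with its 95% confidence interval (black diamond and bar), the same under other settings (blue circles) and after dropping single lines (red crosses). Chgb lies between 1.31 and 1.96 in every setting, and each of the other 5 genes has an interval that spans 0.

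The lines differed in granin makeup as well as in level. Against the control mean on the log2 scale, control line 2 had the lowest Chgb (-0.57), Scg2 (-0.62) and Scg5 (-0.22) of the 6 lines and the highest Chga (0.17) and Vgf (0.29). Line 5-9 had the lowest Vgf (-0.30) and a Chgb level above the other control lines (0.74). Line 19-4 had the lowest Chga (-0.49) and Scg3 (-0.21). Within a line, the Chgb count was 0.253, 0.0900 and 0.147 times the Chga count in control lines 5-9, 2 and 16, and 0.421, 0.442 and 0.631 times in PWS lines 3, 19-1 and 19-4, a ratio that does not depend on the size factors. The groups did not overlap on this ratio, which rested on high Chgb in all PWS lines and, in line 19-4, on low Chga as well. The counterpart ratios of Scg2, Scg3, Scg5 and Vgf to Chga overlapped between the groups.

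The 6 granin genes together took 0.476%, 0.431% and 0.406% of the counted reads in control lines 5-9, 2 and 16, and 0.547%, 0.560% and 0.461% in PWS lines 3, 19-1 and 19-4. Line 19-4 lay within the control range. Without Chgb, the summed level was 127817 ± 5920 normalized counts in the control and 123170 ± 19899 in the PWS lines (SD, n = 3 each). The group means were then in the opposite order, which rests on line 19-4 at 100316. Lines 3 and 19-1 stood at 136650 and 132545, against 121549 to 133313 in the control lines.

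**Figure D3:**
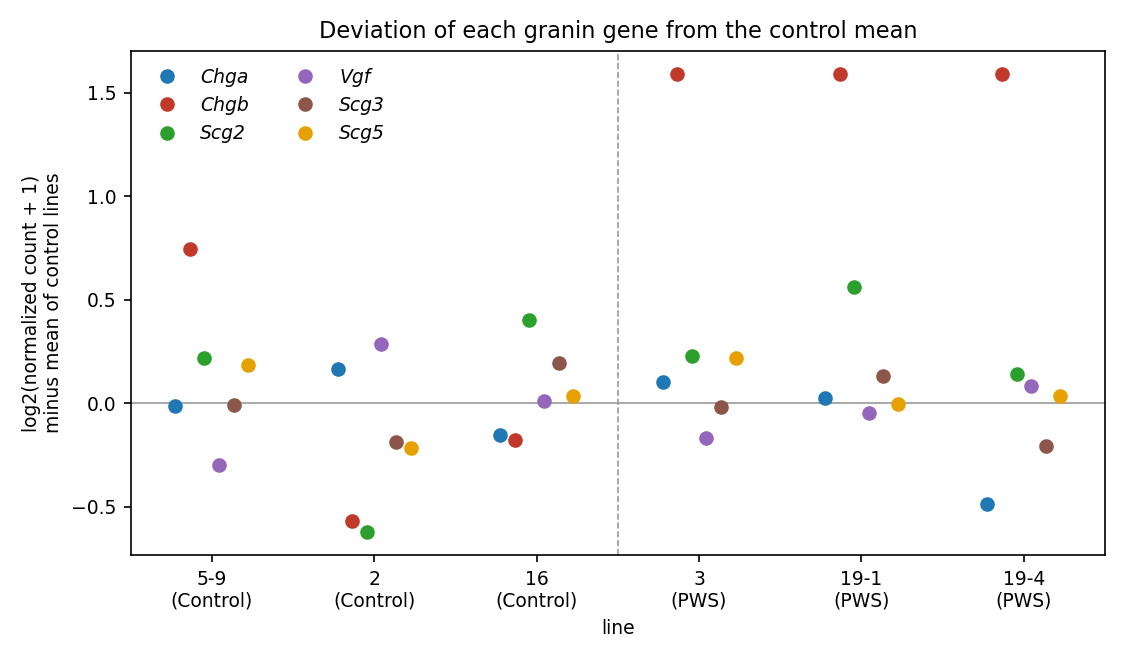
log2(normalized count + 1) of each granin gene minus its mean over the control lines (y), by line (x), 1 point per gene and line, with a dashed line between control and PWS. Chgb stands at 1.59 in each PWS line, while in the control lines it runs from -0.57 in line 2 to 0.74 in line 5-9, and the other 5 genes lie between -0.62 (Scg2 in line 2) and 0.56 (Scg2 in line 19-1).

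Other components of the granule were taken from 4 lists. Of 8 enzymes that cut or modify granins and prohormones, all were tested and limma called 0, against 0.257% of all genes. The median log2 difference was -0.01. Groups overlapped for all 8, while 17.4% of all genes had groups that did not overlap. The ends of this list were Qpct, the glutaminyl cyclase (-0.50, adjusted p-value 0.393), and Ctsl, cathepsin L (0.10, adjusted p-value 0.782). The convertases that cut granins lay between them, with Pcsk1 at -0.02 and Pcsk2, whose chaperone is 7B2, at -0.17, and Cpe, the carboxypeptidase that trims the cut peptides, at -0.01. Only 12.7% of the Pcsk1 reads were unique.

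Of 23 genes for granule biogenesis, membrane and docking, 22 were tested and limma called 0, against 0.257% of all genes. The median log2 difference was -0.07. Ptprn2, which encodes the granule membrane protein phogrin, had the highest log2 difference of this list, 0.61 ± 0.21 (SE), with an adjusted p-value of 0.353. Its level was 7995, 4502 and 7591 normalized counts in the control lines 5-9, 2 and 16, and 9154, 11571 and 9104 in PWS lines 3, 19-1 and 19-4, so the groups did not overlap. Sytl4, which encodes the docking protein granuphilin, had the lowest, -0.54 ± 0.21 (SE), with an adjusted p-value of 0.396 and overlapping groups. Groups also did not overlap for Pick1, higher in PWS, and for Rab2a, lower in PWS. That makes 3 of 22 genes in all, against the 17.4% of all genes.

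The peptide hormones that share the granule with granins had lower levels on average in the PWS lines, but none passed the test with limma. Of 10 hormone genes 7 were tested, and limma called 0 of 7, against 0.257% of all genes. The median log2 difference was -0.57. All 7 estimates were below 0, against 7901 of the 15579 genes tested. The ends were Ins2 (-0.99 ± 0.42, adjusted p-value 0.432) and Nucb2, the nesfatin precursor (-0.01 ± 0.13, adjusted p-value 0.991). DESeq2 called 1 of 7, Npy, against 1.46% of all genes (0.783% lower in PWS), and 0% of the Npy reads were unique. For Ins1, Iapp and Npy every PWS line lay below every control line, 3 of 7 against 9.01% of all genes with the PWS lines all lower. The summed level of β-cell markers given above rests mostly on Ins1 and Iapp and so restates these values. The 6 β-cell markers tested that are not hormones of this list had overlapping groups, with log2 differences of -0.14 for Slc2a2, -0.10 for Pdx1, -0.09 for Neurod1, -0.08 for Nkx6-1 and 0.10 for Mafa, and of -1.74 for Ucn3 at 22.9 and 9.72 normalized counts.

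Of 16 regulators of granin genes, 15 had a row and were tested, and limma called 0, against 0.257% of all genes. The median log2 difference was -0.09. Jun had the lowest log2 difference (-1.02 ± 0.50, adjusted p-value 0.492), with 2433 normalized counts in control line 2 against 372 to 639 in the other 5 lines. Egr1 had the highest (0.32 ± 0.27, adjusted p-value 0.698). Groups did not overlap for 1 of the 15, Pax6, an islet transcription factor, with 6965 to 7544 normalized counts in the PWS and 7663 to 9333 in the control lines (-0.19 ± 0.09, adjusted p-value 0.449), against 17.4% of all genes. Line 2, the line of high Jun, was also the lowest for Chgb, Scg2 and Scg5, and any part of Jun in those values was not tested. Creb1, whose product binds the CRE, differed by 0.10 ± 0.10, Rest, the repressor of neuroendocrine genes, by -0.53 ± 0.37 at a mean of 23.3 and 15.1 normalized counts, and Sp1 by 0.12 ± 0.07 (log2 difference ± SE), each short of the threshold. Insm1 matched no row by name.

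**Figure D4:**
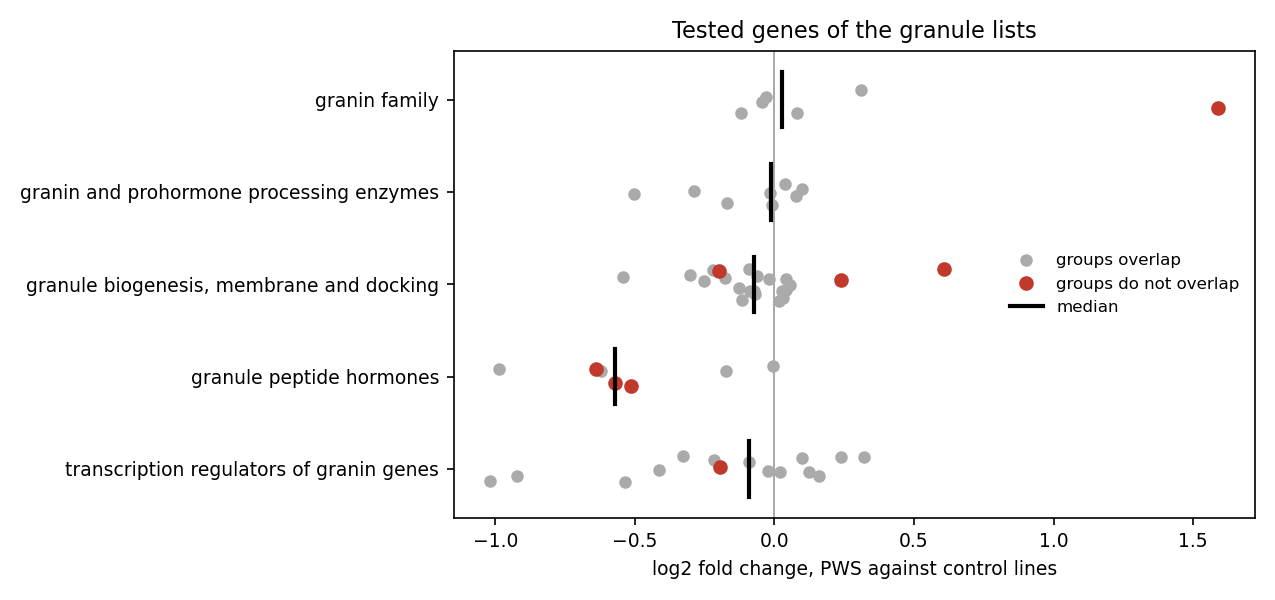
log2 fold change of PWS against control lines for the tested genes of the granin family and of 4 lists of granule genes and regulators, 1 point per gene, with red points where the 3 PWS and the 3 control lines do not overlap and a black bar at each list's median. Chgb at 1.59 stands to the right of every other point, and the hormone list has its median at -0.57.

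Genes whose log2 values over the 6 lines were most like each granin gene were ranked by Pearson's r among 12737 genes that averaged 50 or more. This is a description, since every r rests on the same 6 libraries and 2 groups. Genes known only by a provisional clone or locus name were passed over, so the 3 given per member lead among named genes. For Chgb they were Tcp11l2 (r = 0.992), Tasp1 (0.990) and Zfp507 (0.988), of which Tcp11l2 had the larger change. Its normalized counts were 304, 246 and 262 in lines 5-9, 2 and 16, and 376, 368 and 386 in PWS lines 3, 19-1 and 19-4, a log2 difference of 0.48 with a limma adjusted p-value of 0.258. Leading for the other members were Rab4b, Myh14 and Ndufa7 for Chga (r = 0.997, 0.994 and 0.984), Mtif2, Erc2 and Mtus1 for Scg2 (0.999, 0.998 and 0.997), and Armcx1, Sycp2 and Ano10 for Scg3 (0.998, 0.994 and 0.992). Slco4a1, Zbtb38 and Atg10 led for Scg5 (0.990, 0.983 and 0.978), and Ugcg, Col9a1 and Zpbp for Vgf (0.986, 0.981 and 0.980). Only 7.57% of the Armcx1 reads and 48.2% of the Zfp507 reads were unique. No granin gene was among the 3 most alike of another. The highest r within the family was that of Scg2 with Scg3 (0.74), at rank 1265 from Scg2, and the lowest that of Scg5 with Vgf (-0.92). Chgb had r = 0.60 with both Scg2 and Scg5, and -0.32 with Chga.

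The genes next to Chgb were looked at by their order in GRCr8. On one side Shld1 had 10.2 ± 2.60 normalized counts in the control and 16.6 ± 2.88 in the PWS lines (SD, n = 3 each), without overlap, a log2 difference of 0.67 ± 0.32 (SE) and a limma adjusted p-value of 0.474. Gpcpd1, beyond it, differed by 0.24 on the log2 scale, and Prokr2 fell under the minimum level. On the other side Trmt6, Mcm8 and Crls1 differed by 0.09, -0.10 and -0.03. Their groups overlapped, and none of the 5 neighbours tested came near the 1.59 of Chgb.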

How the data were processed

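Rat INS-1 lines, 3 control and 3 PWS, were profiled by RNA-seq of rRNA-depleted total RNA (stranded, 75-bp paired-end reads), 1 library per line. The authors trimmed reads with cutadapt, checked them with FastQC 0.11.5, aligned them with STAR 2.7.0e to the Ensembl rat genome with transgenes and custom features added, and counted genes with HTSeq 0.11.2 (nonunique all and nonunique none) or RSEM 1.3.1. The strand setting of the counting is not given in the sources used here. What the authors deposited for each line is a signal: gene counts scaled by the size factors of DESeq2. Their own fold changes and p-values stand in further columns and were not used. Each column was mapped to its line by name, and 0 columns were left without a line.

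From the nonunique all table, the 15579 genes that averaged 5 or more normalized counts in the 6 lines were compared by limma 3.58.1 (R 4.3.3, eBayes with trend) on log2(normalized count + 1), unpaired, with Benjamini-Hochberg adjustment over all of them and a threshold of 0.05. Dividing by the value of 1 read gave whole reads for 100% of nonzero HTSeq values (tolerance 0.001). The recovered reads served edgeR 4.0.16, under which 32 genes were called, DESeq2 1.42.0 and TMM scaling. The share of unique reads is that of nonunique none over nonunique all reads. A read outside that share either aligned to several places or overlapped several annotated genes, and these cases were not told apart. Counting intervals cover counting error only. The tests were first run on simulated counts with known changes. The spread of Chgb under other tables was added after the values were seen. Control and PWS lines share the numbers 1 to 3 in their labels, but the numbers do not pair them: deviations of same-numbered lines correlated at 0.00345, 0.0467 and 0.00513.

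The members, gene lists and tests were chosen with earlier results of these data known. By the rule for naming genes, the text names every member, the tested genes at both ends of each list and any gene of a list that limma called. It also names the 3 genes most like each member, provisional clone or locus names aside. Markers, Mkrn3, Snurf and the neighbours of Chgb aside, other genes named were chosen after their values were seen. Promoter windows are those of RefSeq (GRCr8), and gene order was taken from the same assembly.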

Additional observations from a re-analysis of the deposited data

How the results depend on the processing

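Chgb stayed higher in PWS under all 19 alternatives, with log2 differences of 1.31 to 1.96 and adjusted p-values of 0.0011 to 0.509. It passed the threshold under 2 of them, with DESeq2 (log2 1.48, adjusted p-value 0.0271) and without control line 5-9 (log2 1.96, adjusted p-value 0.0011), where 1 granin gene was called instead of 0. Leaving out each line gave 0 to 1 granin genes called. With lines 19-1 and 19-4 averaged into 1 sample its adjusted p-value was 0.485. DESeq2 also called 1 of the 7 hormone genes tested, against 1.46% of all genes. The other granin genes were called under none of the 19, and their small differences changed sign in places: Vgf with nonunique none counting (0.0186), and, with 1 line left out, Chga (range -0.23 to 0.0627), Scg2 (-0.0023 to 0.51), Scg3 (-0.13 to 0.0668), Scg5 (-0.027 to 0.17) and Vgf (-0.19 to 0.10). For Scg2, Scg5 and Vgf this was without control line 2 (-0.0023, -0.027 and 0.10), for Vgf also without PWS line 3 (0.02), for Scg3 without control line 16 (0.0668) or PWS line 19-4 (0.0569), and for Chga without PWS line 19-4 (0.0627).

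Over all genes, 1 was called higher and 39 lower in PWS. The higher count was 4 for genes with any read, 2 with TMM scaling, 106 with DESeq2, 2 without the trend, 4 at an adjusted p under 0.1, and 1 to 13 with each line left out. The lower count was 8 with a mean of at least 50, 122 with DESeq2, 15 with nonunique none counting and 11 with RSEM, and 32 to 42 with each line left out. The cause was not tested. With the replicate number as a block, the adjusted p-value of Chgb was 0.0769, 35 genes were called lower, and no call on a granin gene or list changed. Depth limits Chgb little, since every line had at least 10191 reads of it.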
